A study of Mus musculus with 12 samples.

Results

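The microRNAs described are miR-199a-5p, miR-199b-5p, miR-199a-3p, miR-199b-3p, miR-214-3p and miR-214-5p, matched by their own names and arms, and they make up 6 of the 616 mature microRNAs listed. They were followed through 12 libraries of small RNA from embryonic gonads of CD1 mice. Primordial germ cells (PGCs), the precursors of eggs and sperm, and the gonadal somatic cells (SC) around them were taken from embryos of both sexes at 3 ages in embryonic days: E11.5, then E12.5, then E13.5. No animal carried an engineered allele or received a treatment, per the labels. Every combination was sequenced once, so none had a replicate. Per the labels, each separation pooled about 80 gonads freed of the mesonephros. Antibodies to the surface antigen CD15 on magnetic beads took out the PGCs, and the unbound stromal fraction was the SC. By a stain for germ cells the PGC fraction was 93 to 96% pure and the somatic fraction over 90%, per the labels, so each fraction can hold some cells of the other.

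A microRNA is cut from a hairpin transcript, and either arm (5p or 3p) can be loaded into an Argonaute protein. Pairing of its seed, bases 2 to 8, with messenger RNAs then leads to their repression. miR-199a and miR-214 are cut from a shared non-coding transcript, Dnm3os, whose activation by the mesenchymal transcription factor TWIST1 is well described. They are known as microRNAs of mesenchyme, fibroblasts and developing skeleton. In the gonad, the mesenchymal and stromal cells belong to the somatic fraction, while PGCs are known instead for the miR-290 and miR-302 clusters.

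The sequences below show why some members can be counted apart and others cannot. They are RefSeq entries on build GRCm38.p6, found for 5 of the 6 members, and are written from 5′ to 3′ with the seed in capitals.
miR-199a-5p: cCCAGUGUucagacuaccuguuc
miR-199a-3p: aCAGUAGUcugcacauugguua
miR-199b-3p: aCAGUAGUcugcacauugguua
miR-214-3p: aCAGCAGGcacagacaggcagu
miR-214-5p: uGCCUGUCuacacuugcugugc
The 3p arms of miR-199a and miR-199b were identical over their whole length. Their seed differed from that of miR-214-3p, which begins with the same letters. Among the 1679 mature names in the table, the seed of miR-214-3p was shared with miR-761 alone, which is not listed in the deposited table. The seed of miR-214-5p was shared with no other entry of the table.

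The 3p arm of miR-199 comes from 3 hairpins. They are printed to show that the mature 3p arm, in capitals, is the same run of letters inside different hairpins. In Mir214 the capitals mark both mature arms.
Mir199a-2: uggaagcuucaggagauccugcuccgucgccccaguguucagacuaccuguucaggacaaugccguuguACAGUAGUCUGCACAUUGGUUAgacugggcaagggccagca
Mir199a-1: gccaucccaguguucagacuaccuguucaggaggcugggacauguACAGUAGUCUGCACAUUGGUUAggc
Mir199b: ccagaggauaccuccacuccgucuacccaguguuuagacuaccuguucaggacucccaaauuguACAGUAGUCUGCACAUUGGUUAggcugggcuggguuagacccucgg
Mir214: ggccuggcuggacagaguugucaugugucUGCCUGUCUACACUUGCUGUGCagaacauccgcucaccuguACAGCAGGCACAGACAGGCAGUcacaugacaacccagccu
Mir199a-2 lies at chr1:162217814-162217923 on the plus strand. Mir214 lies at chr1:162223368-162223477 on the same strand and starts 5445 bases after the end of Mir199a-2. Both fall in an exon of Dnm3os and, on the opposite strand, within an intron of Dnm3, by a GENCODE annotation of the later build GRCm39 used only for these relations. Mir199b, at chr2:32318460-32318569 on the plus strand, lies opposite an intron of Dnm1. Mir199a-1, at chr9:21496495-21496564 on the minus strand, lies opposite an intron of Dnm2. The dynamin genes Dnm1, Dnm2 and Dnm3 encode GTPases of membrane fission.

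The deposited values divided the shared 3p reads by hairpin number. In 11 of 12 libraries the reads listed for miR-199a-3p came within 0.5 read of the share given by 2 hairpins against 1. In SC female E13.5 they were 2 reads away. The separate values of miR-199a-3p and miR-199b-3p are therefore 1 measurement, written here as miR-199-3p for their sum. The 5p arm of miR-199a also has 2 hairpins, and which of them gave its reads cannot be told apart.

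A deposited value is a read count of a mature microRNA that the authors divided by a size factor of its library. The same reads are also given per 1000000 microRNA reads of their library (RPM), which is the scale of the levels below. A level in RPM is relative to all other microRNAs of its library. The libraries held 166804 to 1768825 microRNA reads, with the fewest in the E12.5 PGC libraries, and all 6 members were detected in all 12 libraries. PGC female E12.5 combined the fewest reads (166804) with the largest size factor (1.58). Library totals of deposited values spanned 105730 to 2158037, so dividing by size factors did not make the totals equal. A difference in deposited values therefore includes the difference between library totals. In these bulk libraries, fewer cells of a type and less RNA per cell cannot be told apart.

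The library labelled PGC female E11.5 stood apart from its label. A list of 12 microRNAs of the miR-290 cluster, which marks germ and pluripotent cells, took 0.233% of its reads, with 3 of 12 at 0. The other 5 PGC libraries had 7.04 to 14.1%, and the SC libraries had 0.0244 to 0.599%. Its share for the 2 arms of miR-126a, the endothelial list, was the highest of all libraries at 5.14%. Many counts of calls and tests of ratios that use this library are given with and without it.

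The members together took 0.625 to 5.05% of the microRNA reads of PGC libraries and 4.77 to 8.92% of those of SC libraries. PGCs had a mean of 2.26% ± 1.67 and SC one of 6.99% ± 1.48 (SD, n = 6 libraries each). The single library labelled PGC female E11.5 reached into the range of the SC, whose lowest library was SC male E11.5. In SC, miR-199a-3p ranked between place 4 and place 14 of the 616 microRNAs, and miR-199a-5p between place 6 and place 11. In PGCs the places were 11 to 61 for miR-199a-3p and 17 to 78 for miR-199a-5p.

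**Figure D1:**
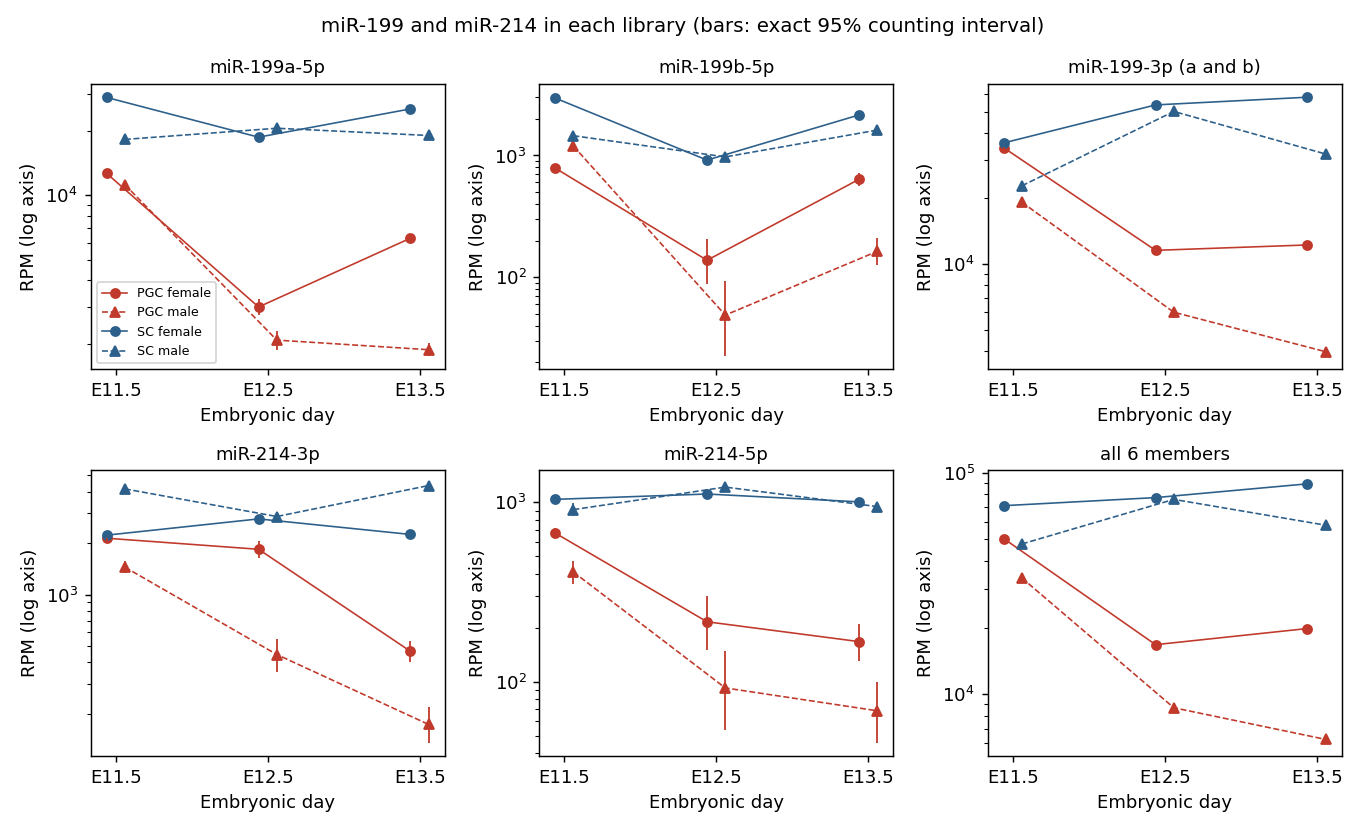
Level of each member, of both miR-199 3p arms together and of all 6 members in the 12 libraries, in RPM on a log axis against embryonic day; red marks PGC, blue SC, circles female, triangles male, and bars give the exact 95% counting interval. At E12.5 and E13.5 every PGC point of miR-199-3p (3964 to 12244 RPM) lies below every SC point (31974 to 58280 RPM), while at E11.5 the highest PGC point (34207 RPM) lies above the lower of the SC points (22864 RPM).

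miR-199-3p, an arm known to repress Mtor and Cd44, was the most abundant measurement. In female PGCs it stood at 34207 RPM at E11.5, 11564 at E12.5 and 12244 at E13.5. In male PGCs the values were 19222, 6016 and 3964 RPM. Female SC had 35957, 53720 and 58280 RPM, and male SC had 22864, 50141 and 31974 RPM, at the same stages. The PGC and SC ranges overlapped only through PGC female E11.5. Ordered from SC female E13.5 down to PGC male E13.5, 1 of the 11 neighbouring libraries had overlapping counting intervals, PGC female E13.5 with PGC female E12.5.

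miR-199a-5p, known as a repressor of Hif1a, separated the cell types in every library. Female PGCs had 12698, 2992 and 6298 RPM and male PGCs had 11235, 2090 and 1884 RPM at the 3 stages in order. Female SC had 28884, 18787 and 25509 RPM and male SC had 18338, 20689 and 19131 RPM. The highest PGC library lay below the lowest SC library. Counting intervals overlapped for 3 of the 11 neighbours in this order, among them SC male E13.5 with SC female E12.5.

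miR-199b-5p, the arm named for the Mir199b hairpin alone, was the least abundant miR-199 arm. In the printed Mir199b hairpin the stretch matching miR-199a-5p differs from it by a single base. Whether reads of the more abundant miR-199a-5p were counted under miR-199b-5p was not tested. Female PGCs had 788, 138 and 637 RPM at the 3 stages, and male PGCs had 1194, 48.9 and 163 RPM. Female SC had 2961, 916 and 2151 RPM, and male SC had 1453, 973 and 1616 RPM. The lowest value rested on 9 reads, in PGC male E12.5. All 4 E12.5 libraries were the lowest of their sex and cell type, and PGC male E11.5 lay above both E12.5 SC libraries. Counting intervals overlapped for 4 of 11 neighbours.

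miR-214-3p, known as a repressor of Ezh2, had its highest levels in male SC. Female PGCs had 2136, 1840 and 465 RPM, and male PGCs had 1446, 445 and 173 RPM at the 3 stages. Female SC had 2226, 2772 and 2248 RPM, and male SC had 4154, 2863 and 4346 RPM. The cell types did not overlap, although PGC female E11.5 and SC female E11.5 had overlapping counting intervals, as did 6 of 11 neighbours in all.

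miR-214-5p, the arm of Mir214 with fewer reads, varied least among the SC libraries. It ran from 911 to 1217 RPM in SC, with a mean of 1039 ± 112 (SD, n = 6). Female PGCs had 675, 216 and 167 RPM and male PGCs had 409, 92.3 and 68.8 RPM at the 3 stages. No PGC library reached the lowest SC library, and 8 of 11 neighbours in the order had overlapping counting intervals, 5 of these pairs starting among the SC.

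The first comparison set PGCs against the somatic cells of the same stage and sex. All 6 members were lower in PGCs in 6 of 6 pairs, and since both 3p names share their reads, a count of 6 stands for 5 measurements here and below. Fitted on the deposited scale, the difference ran from -4.04 ± 0.72 on the log2 scale (SE) for miR-199a-3p to -4.56 ± 0.73 for miR-214-5p. That is 16.5-fold to 23.7-fold lower, with the difference between library totals included. All 6 passed the threshold of an adjusted p under 0.05 (limma, Benjamini-Hochberg over 513 microRNAs), with adjusted p from 0.0002 to 0.000227. On this scale 77.2% of all microRNAs tested were called lower in PGCs, 7.02% were called higher, and the median difference was -2.57 against -4.31 for the members.

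At equal totals, in RPM, the difference was smaller and the background much lower. Of all microRNAs, 25.5% were called lower in PGCs and 13.5% higher, and 6 of 6 members were called lower. The log2 difference was -2.20 ± 0.38 (SE) for miR-199a-5p with an adjusted p of 0.00279, and -1.81 ± 0.43 for miR-199a-3p with an adjusted p of 0.0116 (limma). It was -1.96 ± 0.51 for miR-214-3p and -2.37 ± 0.46 for miR-214-5p, with adjusted p of 0.0154 and 0.00526 (limma). The median was -2.08 for the members and -0.74 over all microRNAs. Without the library labelled PGC female E11.5 the calls were 6 on both scales, and the differences in RPM ran from -2.16 to -2.71. Over all microRNAs that fit called 74.3% lower and 7.41% higher in deposited values, and 31.2% lower and 14.8% higher in RPM. At equal totals, 0 of 6 were called without both E12.5 pairs or without both E13.5 pairs, and 6 of 6 on the deposited scale. The shares over all microRNAs in these smaller fits are not given here.

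The distance between the cell types was not even over the stages. At E11.5 the RPM of miR-199-3p in PGCs was 0.951 times that in SC in females and 0.841 times in males. At E12.5 these ratios were 0.215 and 0.120, and at E13.5 they were 0.210 and 0.124. For miR-214-3p the female ratio was 0.960 at E11.5, 0.664 at E12.5 and 0.207 at E13.5, and the male ratio was 0.348, 0.156 and 0.0399. The 2 miR-199 5p arms were further apart in the E11.5 female pair, at 0.440 for miR-199a-5p and 0.266 for miR-199b-5p. The female ratio of miR-199b-5p was 0.151 at E12.5 and 0.296 at E13.5, so the last was no lower than at E11.5. Its male ratio was 0.822, 0.0502 and 0.101 at the 3 stages. Each E11.5 ratio of miR-199-3p was above both E12.5 and both E13.5 ratios, and the female E11.5 pair includes the library with few miR-290 reads.

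**Figure D2:**
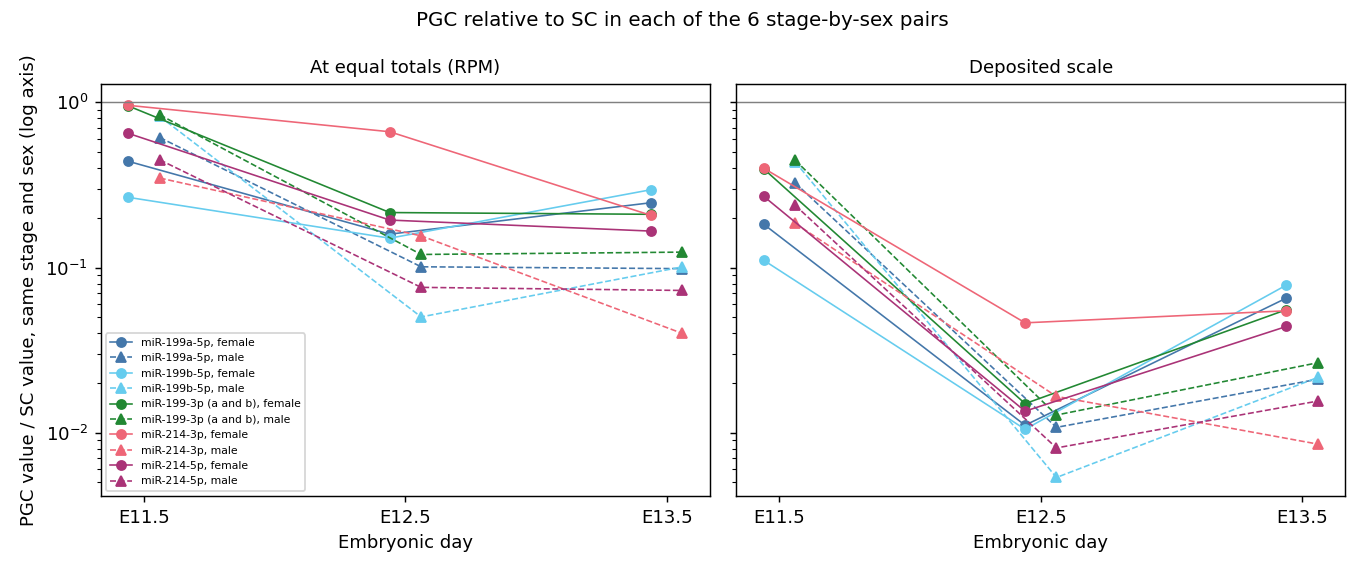
PGC value divided by the SC value of the same stage and sex, on a log axis, in RPM (left) and on the deposited scale (right); colours mark members, circles female and triangles male pairs, and the grey line is a ratio of 1. All points lie below the line, and miR-199-3p has ratios in RPM of 0.951 and 0.841 on the earliest day and of 0.210 and 0.124 on the last.

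Within PGCs the members fell between E11.5 and E13.5. All 6 were called lower on the deposited scale (limma), where 25.1% of all microRNAs were called lower and 7.8% higher. miR-214-3p fell by 3.24 on the log2 scale (SE 0.78, adjusted p = 0.00117, limma) and miR-199a-5p fell by 2.41 (SE 0.82, adjusted p = 0.0183, limma). In RPM 5 of 6 were called lower, against 21.4% of all microRNAs, with 7.41% of all called higher. miR-214-3p fell by 2.63 (SE 0.42, adjusted p = 0.00549, limma), miR-199a-3p by 1.88 (SE 0.30) and miR-214-5p by 2.28 (SE 0.32). miR-199b-5p had a change of -1.59 ± 0.62 (SE) in RPM with an adjusted p of 0.104 (limma) and was not called.

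These calls depended on single libraries on the deposited scale. With 1 library left out, the deposited change ran from -3.39 to -3.08 for miR-214-3p and from -2.96 to -1.86 for miR-199a-5p. In RPM it ran from -3.21 to -2.04 for miR-214-3p and from -2.49 to -1.10 for miR-199a-5p. Such fits can leave 1 library at a stage, as does the fit without PGC female E11.5. Without that library the shares of all microRNAs called lower were 1.75% on the deposited scale and 13.3% in RPM. Markers of other cell types moved over the same interval, in both directions. The 2 miR-126a arms were both called lower on both scales, and their summed share of reads went from 5.14% to 1.12% in females and from 2.78% to 0.675% in males. The 3 muscle microRNAs were also called lower on both scales, and their summed share was 0 in 3 of the 4 later PGC libraries. Both arms of miR-202, the gonadal somatic list, were called higher on both scales, with a median log2 change of 2.96 in deposited values and 3.93 in RPM. Of the 11 germ-cell microRNAs tested, 10 were called higher in deposited values and 0 in RPM. Without PGC female E11.5 the RPM calls were 2 of 2 lower for miR-126a, 3 of 3 lower for muscle, 1 of 2 higher for miR-202 and 0 of 11 for germ cells, and in deposited values 0, 1, 0 and 0. The part of endothelial, muscle or other somatic cells in the fall of the members was not tested.

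For most members the lower level was already present at E12.5. All 6 were called lower at E12.5 than at E11.5 on the deposited scale (limma), against 59.3% of all microRNAs called lower and 1.56% higher, with the largest change for miR-199b-5p at -5.63 ± 0.81 (SE, log2). In RPM 5 of 6 were called lower, against 32% of all microRNAs with 7.41% called higher, and miR-199b-5p changed by -3.54 ± 0.62 (adjusted p = 0.00528, limma). miR-214-3p changed by -0.96 ± 0.42 with an adjusted p of 0.113 (limma) and was not called. With 1 library left out, the RPM change ran from -4.70 to -2.39 for miR-199b-5p and from -1.54 to -0.37 for miR-214-3p. Fewer members were called in RPM without PGC male E11.5 or without PGC female E12.5. Such fits leave 1 library at a stage, and their shares over all microRNAs are not given here.

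Between E12.5 and E13.5 the 2 scales gave different pictures. miR-199b-5p rose by 3.43 ± 0.81 (SE, log2) and miR-199a-5p by 2.05 ± 0.82 on the deposited scale, with adjusted p of 0.00119 and 0.0479 (limma), where 31.6% of all microRNAs were called higher. In RPM 0 of 6 members were called by limma, 2 had an unadjusted p under 0.05 as did 151 of all 513 microRNAs, and 9.75% of all microRNAs were called higher and 0.78% lower. The 2 with the smallest RPM p were miR-214-3p, at -1.67 ± 0.42 (adjusted p = 0.0507, limma), and miR-199b-5p, at 1.96 ± 0.62 (adjusted p = 0.0884, limma). The median over all microRNAs was 1.39 on the deposited scale and 0.014 in RPM for this step. With 1 library left out, the deposited change ran from 2.81 to 4.06 for miR-199b-5p and from 1.24 to 2.85 for miR-199a-5p. The deposited calls were fewer with most single PGC libraries left out, PGC female E11.5 among them. The shares over all microRNAs in these fits are not given here.

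In SC no stage change of a member was called. Between E11.5 and E13.5 limma called 0 of 6 on either scale, with 0 at an unadjusted p under 0.05, while 8.38% of all microRNAs were called higher with 2.53% lower in deposited values, and 6.63% higher with 1.36% lower in RPM. Between E11.5 and E12.5 it called 0 of 6, against 0.975% of all called higher and 2.34% lower in deposited values, and 0.585% and 0.39% in RPM. At an unadjusted p under 0.05 (limma) there were 0 members in deposited values and 2 in RPM, with 78 of all 513 microRNAs. These 2 were the miR-199 3p names, which are 1 measurement. Between E12.5 and E13.5 limma also called 0 of 6, with 0 at that level. Of all microRNAs, 7.6% were called higher and 1.17% lower in deposited values, and 0.39% and 0% in RPM. The gonadal somatic microRNA miR-202, whose 2 arms are background for maturing supporting cells, was called higher over the whole interval on both scales. The difference between the PGC change and the SC change from E11.5 to E13.5 was itself tested. It was -2.47 ± 0.42 (SE, log2) for miR-199a-3p and -2.67 ± 0.59 for miR-214-3p in RPM, with adjusted p of 0.0636 and 0.0842 (limma). It called 0 of 6 members on either scale, against 0.78% and 0% of all microRNAs called lower. At an unadjusted p under 0.05 there were 6 members on the deposited scale, with 102 of all 513 microRNAs, and 5 members in RPM, with 108 of 513. With 1 library left out, the difference in RPM ran from -2.84 to -2.10 for miR-199a-3p and from -3.25 to -2.08 for miR-214-3p.

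No member passed the test between the sexes. In PGCs the RPM difference of male against female ran from -0.81 to -1.34 on the log2 scale, with adjusted p from 0.233 to 0.403 (limma) and 5 of 6 at an unadjusted p under 0.05, as were 83 of all 513 microRNAs. The deposited values gave -1.11 to -1.64, with adjusted p from 0.392 to 0.518 (limma) and 4 of 6 at that level, as were 51 of 513. Both counts include the 2 miR-199 3p names, which are 1 measurement. Without PGC female E11.5 limma called 0 of 6 on both scales, and the RPM differences ran from -1.13 to -1.73. miR-199-3p and miR-214-3p were lower in male PGCs at 3 of 3 stages. The endothelial list was also lower in male PGCs at each stage, at 2.78 against 5.14%, 0.467 against 0.763% and 0.675 against 1.12% of reads, and its part in the difference was not tested. In SC limma called 0 of 6 on either scale, with 0 at an unadjusted p under 0.05. Of all microRNAs, 0.39% were called lower in male PGCs and 1.17% in male SC on the deposited scale, and 0% in either cell type in RPM.

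The RPM of miR-214-3p was lower in male than in female PGCs but higher in male than in female SC, each at 3 of 3 stages. At E12.5 its counting intervals in male and female SC overlapped (2863 and 2772 RPM). In deposited values it was lower in male SC at E11.5 (2888 against 4803) and E12.5 (3958 against 4207) and higher at E13.5 (7349 against 3306). In SC the test was not passed, with a fitted difference of 0.63 ± 0.34 (SE, log2; adjusted p = 0.924, limma). On the deposited scale that difference was 0.11. The sex difference in PGCs minus that in SC was -1.97 ± 0.48 in RPM, with an unadjusted p of 0.00481 and an adjusted p of 0.414 (limma), so it did not pass the correction. In deposited values it was -1.75 ± 0.90, with an unadjusted p of 0.0565. It was -2.36 in RPM and -1.64 in deposited values without PGC female E11.5. This contrast was added after the values had been seen.

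Ratios between members within a library do not depend on the scaling between libraries. The reads of miR-199a-3p are a share of the pooled 3p reads set by hairpin number, so a ratio to them depends on that share. The ratio of miR-199a-5p to miR-199a-3p was 0.388 to 0.877 in PGCs and 0.525 to 1.20 in SC. It was lower in PGCs in 5 of 6 pairs, by a mean log2 difference of -0.39 ± 0.43 (SD, n = 6 pairs; exact two-sided paired permutation p = 0.0625, adjusted over 5 ratios 0.312). Without the female E11.5 pair it was -0.25 ± 0.28, lower in 4 of 5 pairs (exact permutation p = 0.125). The smallest p that 6 pairs allow is 0.03125. Both miR-199 5p arms against both 3p arms, which needs no such share, gave 0.271 to 0.647 in PGCs and 0.367 to 0.886 in SC. That difference was -0.40 ± 0.46 (exact permutation p = 0.0625). The ratio of miR-214-5p to miR-214-3p was 0.117 to 0.397 in PGCs and 0.218 to 0.467 in SC, with a difference of -0.41 ± 0.95 (exact permutation p = 0.344, adjusted 0.547), and of -0.38 without the female E11.5 pair. The ratio of miR-199b-5p to miR-199a-5p differed by -0.18 ± 0.57 between the cell types (exact permutation p = 0.4375, adjusted 0.547), and by -0.07 without the female E11.5 pair.

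The ratio of miR-214-3p to miR-199-3p sets the 2 abundant 3p arms against each other. It ran from 0.0380 to 0.159 in PGCs and from 0.0386 to 0.182 in SC. The 3 highest values were in SC male E11.5 (0.182), PGC female E12.5 (0.159) and SC male E13.5 (0.136). The cell types differed by -0.15 ± 1.18 (SD, log2, n = 6 pairs; exact permutation p = 0.844), less than the spread between pairs. The difference was -0.19 without the female E11.5 pair, 0.07 without the male E11.5 pair and 0.14 without the male E13.5 pair. Because miR-199-3p is also cut from Mir199a-1 and Mir199b, this ratio does not compare the products of Dnm3os alone.

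**Figure D3:**
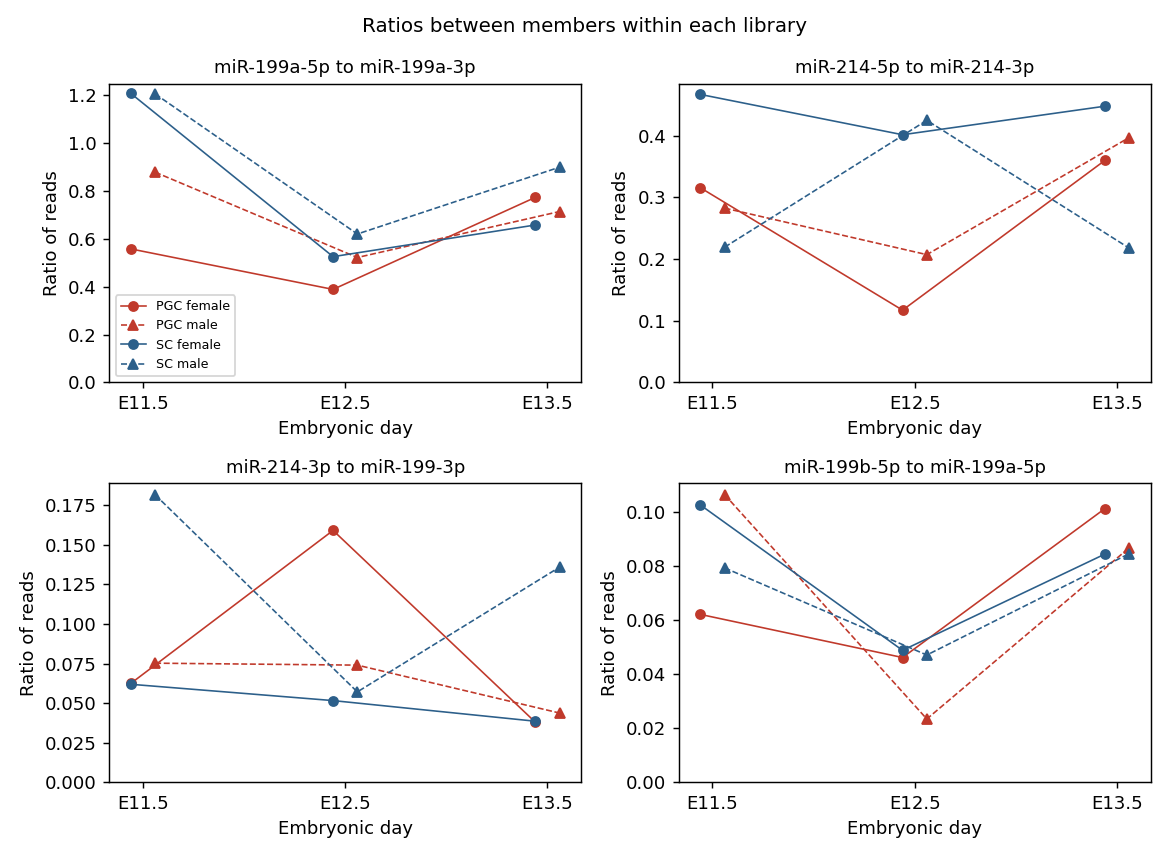
Ratios of reads between members within each library against embryonic day; red marks PGC, blue SC, circles female and triangles male. The ratio of miR-199b-5p to miR-199a-5p is lowest in the 4 libraries of E12.5 (0.0234 to 0.0488), below the 8 others (0.0620 to 0.106).

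Another cluster known from mesenchyme is miR-143 with miR-145, described in smooth muscle and fibroblasts. Its 4 arms together took 0.347 to 4.68% of the reads in PGCs and 2.43 to 5.98% in SC. The ratio of the 6 members to these arms differed between the cell types by -0.10 ± 0.28 (SD, log2, n = 6 pairs; exact permutation p = 0.406, adjusted 0.547), lower in PGCs in 3 of 6 pairs, and by -0.10 without the female E11.5 pair. The ratio differed with the stage in both cell types. It was 0.932 to 1.19 in the 4 earliest libraries, 2.16 to 2.89 at E12.5 and 1.69 to 2.38 at E13.5. The E11.5 libraries did not overlap with the later ones, a pattern that was seen in the values and not tested.

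The members can be set beside a list of 20 other microRNAs known from mesenchyme. Of these, 19 of 20 deposited values were called lower in PGCs than in SC (limma), and at equal totals 9 were lower and 1 was higher, against 77.2% lower in deposited values and 25.5% lower with 13.5% higher in RPM over all microRNAs. Without PGC female E11.5 these counts were the same. The list held 22.8 to 34.3% of the reads of PGC libraries and 29.5 to 41.8% of those of SC libraries. Its most abundant microRNAs were not all lower at equal totals. miR-143-3p was lower by -1.90 ± 0.41 (SE, log2; adjusted p = 0.00782, limma), but the HOX-cluster microRNAs miR-10b-5p and miR-10a-5p stood at -0.53 ± 0.28 and 0.78 ± 0.37, and miR-26a-5p, a broadly expressed microRNA, at -0.04 ± 0.24, none of them past the threshold in RPM. Between E11.5 and E13.5 in PGCs, 5 of the 20 had a lower call in deposited values and none a higher one, and in RPM 6 had a lower and 2 a higher call, near the shares over all microRNAs of 25.1% lower in deposited values, and of 21.4% lower and 7.41% higher in RPM. Without PGC female E11.5 there was 1 lower call in deposited values, and 4 lower and 0 higher in RPM.

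**Figure D4:**
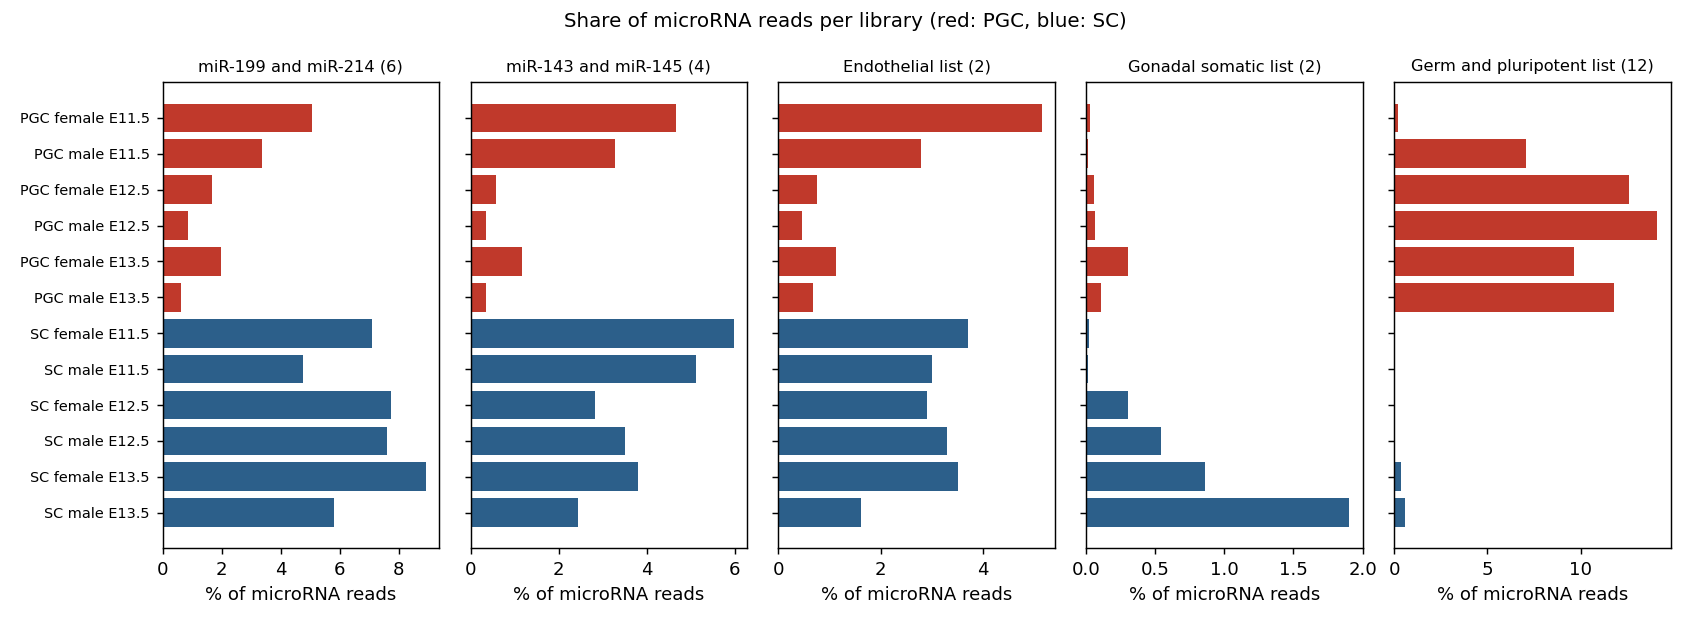
Share of microRNA reads taken by the 6 members, by miR-143 with miR-145, and by lists of endothelial, gonadal somatic and germ-cell microRNAs, as bars from 0 for each library; red marks PGC, blue SC, and the number in each title is the number of microRNAs in it. The library labelled PGC female E11.5 has 5.05% for the members, 5.14% for the endothelial list and 0.233% for the germ list.

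Across the 12 libraries the RPM of the members together was most like that of miR-154-5p (Pearson r = 0.960), miR-181b-5p (0.948), miR-708-5p (0.940), miR-337-5p (0.935), miR-344-3p (0.934), miR-708-3p (0.929), miR-125b-1-3p (0.921) and miR-379-5p (0.920), of 326 microRNAs compared on the log2(RPM + 1) scale. This is a description over libraries that share a cell type, a stage and a denominator. Without PGC female E11.5 the correlations of these 8 ran from 0.922 to 0.962. Within the 6 SC libraries the same correlations ran from -0.31 to 0.91. miR-154-5p, miR-337-5p and miR-379-5p belong to the imprinted Dlk1-Dio3 cluster, and miR-708 to an intron of Tenm4. Among the members, the correlation of miR-214-5p was 0.964 with miR-199a-5p and 0.964 with each miR-199 3p name, and it was lowest between miR-199b-5p and miR-214-3p (r = 0.678).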

How the data were processed

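Small RNA was sequenced on a MiSeq in 12 libraries, grouped by their labels. Per the submitters' processing notes, the authors used FastQC, Trim Galore, Bowtie 1.1.2, DESeq and the build GRCm38. The counting of reads shared by several hairpins is not given in the sources used here. Deposited values are a normalized signal: each library's microRNA counts were divided by its size factor. Their totals still differed between libraries, as given above. Every value was 0 or a whole multiple (tolerance 1e-06) of the smallest value divided by 5, which gave reads, RPM and exact Clopper-Pearson intervals at 95% confidence. The floor of 5 reads equals 2.83 to 29.98 RPM. Intervals and floors hold for counting error alone, since amplified reads without molecular identifiers can repeat 1 molecule.

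Values were tested as log2(value + 1) with limma 3.58.1 in R 4.3.3 (trend) on the 513 microRNAs with a mean value of at least 5, adjusted by Benjamini-Hochberg. PGC and SC were compared with the stage-by-sex pair as a block. Stage and sex, nested in cell type, were fitted over all 12 libraries at once (4 residual degrees of freedom). With the spread that limma shares across microRNAs, the total was 58.3 degrees of freedom in deposited values and 6.92 in RPM. With 1 library per combination, the spread behind a p-value is that of these libraries only. All fits were repeated in RPM. The fit was tested on simulated data. Ratios were tested by exact sign flips in scipy 1.17.1. Named microRNAs are the members, the 8 most correlated with their sum (mean value at least 50), and up to 4 of the most abundant in a list. The members and lists were chosen with earlier results of these data known. Alternatives were other filters, pseudocounts, normalizations and left-out libraries.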

Additional observations from a re-analysis of the deposited data

Results flagged for a closer look

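In a group of 6 libraries, a library was singled out where its gap to the nearest other, divided by the range of the group, exceeded 0.625, the critical value of Dixon's test. Of 44 groups checked, 8 exceeded it, and chance alone gives about 1 in 20. The groups share libraries and reads and are not independent.

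In 7 of these the library was PGC female E11.5, the highest PGC library on the deposited scale. Its deposited value was 45339 for the 6 members together, 30709 for miR-199-3p, 20472 for miR-199a-3p, 11399 for miR-199a-5p, 10236 for miR-199b-3p, 1918 for miR-214-3p and 606 for miR-214-5p. None of these members stood apart in RPM. The same library had 0.233% of reads in the germ and pluripotent list.

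The other was the ratio of miR-214-3p to miR-199-3p in PGC female E12.5, at 0.159, above the 5 other PGC libraries (0.0380 to 0.0752).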

How the results depend on the processing

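Over all alternatives, 462 of the counts and ratio differences were labelled unchanged, 29 moved and 2 reversed. The 462 include counts that changed a little, counts that stayed at 0 and ratio differences not called either way. Of the differences of single members, 712 kept their call, 83 lost it, 5 gained it and 26 turned in sign. The lower call in PGCs against SC held for 6 of 6 members without the pair block. At equal totals that count was 0 without both E12.5 pairs and 0 without both E13.5 pairs; fewer libraries were tested. For the fall in PGCs from E11.5 to E13.5 it was 1 with PGC libraries fitted alone. It also changed with single libraries left out, on both scales, and for E11.5 to E12.5 in RPM only. Such fits can leave 1 library at a stage. For the rise from E12.5 to E13.5 it was 0 in RPM, 0 after quantile normalization and 0 with PGC libraries alone. It was 1 with a pseudocount of 5 and 1 with no filter. With 1 library left out it varied on both scales, and in RPM calls in either direction could appear. The difference between the PGC and SC changes from E11.5 to E13.5 gave 1 lower call with a mean of at least 50. Its count also varied on the deposited scale with 1 library left out. The shares over all microRNAs beside these counts are not given in this section.

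Among the comparisons given member by member, directions turned for E12.5 to E13.5 in PGCs and for the sex difference of miR-214-3p in SC. Uncalled stage changes in SC turned between deposited values and RPM as well, such as 0.31 and -0.06 for miR-199a-5p from E11.5 to E13.5 and 0.13 and -0.11 for miR-214-3p from E11.5 to E12.5. The PGC step from E12.5 to E13.5 turned for 3 names in RPM and after quantile normalization. In that order it was -0.26 and -0.53 for miR-199a-3p, -0.26 and -0.41 for miR-199b-3p, and -0.39 and -0.66 for miR-214-5p. With 1 library left out, it ran in deposited values from 0.60 to 2.06 for miR-199a-3p and 0.60 to 2.05 for miR-199b-3p. In RPM the range was -0.63 to 0.11 for both. For miR-199a-5p it ran from 1.24 to 2.85 in deposited values and from -0.24 to 1.16 in RPM. For miR-214-3p the ranges in the same order were -0.18 to 0.0069 and -2.20 to -1.14. For miR-214-5p they were 0.67 to 1.63 and -0.54 to -0.24. The SC sex difference of miR-214-3p ran from -0.41 to 0.53 in deposited values and from 0.47 to 0.93 in RPM. The difference in the ratio of miR-214-3p to miR-199-3p ran from -0.51 to 0.14. The cause was not tested. A count test on the recovered reads was not run. Depth limits the E12.5 PGC libraries most, where the floor of 5 reads reaches 29.98 RPM. No paired analysis was possible by replicate number because the labels give none; the block used was stage and sex.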

Other observations

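The 5p arm of miR-199a was lowest against its 3p arm at E12.5 in both cell types and both sexes. The ratio of miR-199a-5p to miR-199a-3p was 0.388 to 0.619 in the 4 libraries of E12.5. It was 0.557 to 1.20 at E11.5 and 0.657 to 0.898 at E13.5, so that the E12.5 and E13.5 libraries did not overlap. In each of the 4 series of 3 stages, the E12.5 library had the lowest ratio. Both miR-199 5p arms against both 3p arms gave 0.271 to 0.432 at E12.5, 0.394 to 0.886 at E11.5 and 0.475 to 0.649 at E13.5. The ratio of miR-199b-5p to miR-199a-5p had the same lowest stage, at 0.0234 to 0.0488, against 0.0620 to 0.106 in the other 8 libraries. For miR-214 the 5p to 3p ratio was lowest at E12.5 in PGCs of both sexes (0.117 and 0.207) and in female SC (0.402), but in male SC it was highest there (0.425). Over 47 other hairpins with both arms measured in all libraries, the median 5p to 3p ratio was 1.43 to 1.83 at E12.5 and 1.43 to 2.34 in the other libraries. This median was also lowest at E12.5 in 3 of the 4 series, with male SC the exception. These patterns were noticed in the values, have no test, and the part of library preparation in them was not tested.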
